A study of Mus musculus with 8 samples.

Results

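The cytoplasmic ribosomal protein genes were taken from the count table by symbol: protein-coding genes named Rpl or Rps followed by a number, with Rplp0 to Rplp2 and Rpsa, and without the kinases named Rps6k. The rule found 87 members among 19493 endogenous genes, 52 named Rpl or Rplp (60S subunit) and 35 named Rps or Rpsa (40S subunit). A further 5 protein-coding genes of the annotation met the rule (Rpl3l, Rpl10l, Rpl36a-ps1, Rpl9-ps1 and Rpl36-ps4) but had no row in the table. Of the members, 77 were core ribosomal proteins, 6 were paralogues (Rpl7l1, Rpl22l1, Rpl36al, Rpl39l, Rps27l and Rps27rt) and 3 were gene copies named as pseudogenes but annotated as protein-coding (Rpl10-ps3, Rpl9-ps6 and Rps12-ps3). The last member, Rps19bp1, encodes a protein that binds Rps19 and is not itself part of the ribosome.

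Poly(A) RNA was sequenced from cultured mouse embryonic fibroblasts (MEFs) of 4 wild-type (WT) and 4 Dp1Tyb cultures, all from E14.5 embryos and with no drug treatment described. The labels give the strain background of both genotypes as C57BL/6J.129P2, and per the methods the line had been backcrossed repeatedly to C57BL/6JNimr. Dp1Tyb mice carry an extra copy of the region of mouse chromosome 16 that is orthologous to human chromosome 21 and model Down syndrome. The embryos were decapitated and eviscerated before dissociation, so the cultures could hold cells other than fibroblasts. Synthetic ERCC spike-in RNAs were added at a fixed amount per cell to follow RNA content. The methods describe MEFs from littermate embryos of both genotypes, but with a number of Dp1Tyb embryos that differs from the 4 cultures here, and the labels do not tie each culture to an embryo or litter. The p-values therefore measure the spread between these cultures, part of which may be technical.

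A ribosome is built from a small and a large subunit, and most core ribosomal proteins occur as a single copy in each ribosome, the stalk proteins Rplp1 and Rplp2 being exceptions with more than a single copy. The mRNAs of these proteins are short and abundant, and most begin with a 5′ terminal oligopyrimidine (TOP) tract through which mTORC1 and the RNA-binding protein Larp1 set their translation. Ribosomal protein that is not assembled is degraded, and some of it, such as Rpl5 and Rpl11, can bind Mdm2 and stabilise p53. None of the members lay within the duplicated region (0 of 87): 3 were elsewhere on chromosome 16 (Rpl24, Rpl35a and Rpl39l), 4 on chromosome X, and members occupied 20 chromosomes in all. The comparison therefore asks whether a group of abundant genes spread over the genome, none of them duplicated, kept its level in Dp1Tyb MEFs.

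RefSeq promoter windows (GRCm38.p6, 250 bases before to 50 after the annotated start) were matched by symbol for 64 of the 87 members. An unbroken run of at least 10 C or T on the transcript strand lay within 20 bases before to 50 after the start in 65.6% of the matched members (42 of 64) and in 13.8% of 27025 genes. On the other strand such a run was found in 4.69% of members and 15.4% of genes, and with both strands together in 68.8% and 27.1%. The 10 windows of 30 bases given here, 5′ to 3′ on the transcript strand with the pyrimidine run in capitals, belong to members whose values are described further on: 5 of those with the smallest p-values, the most abundant member, 3 with a known role and the most variable member.
Rpl35, chr2:39005115-39005144, minus strand: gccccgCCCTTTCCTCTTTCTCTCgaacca
Rpl7a, chr2:26910789-26910818, plus strand: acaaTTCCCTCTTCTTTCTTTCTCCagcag
Rpl19, chr11:98026944-98026973, plus strand: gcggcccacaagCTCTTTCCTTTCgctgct
Rps12, chr10:23787181-23787210, minus strand: caccgccggCCTTTTCCCCTgccgccgccg
Rps24, chr14:24490698-24490727, plus strand: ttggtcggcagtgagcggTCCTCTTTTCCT
Rpl41, chr10:128549119-128549148, minus strand: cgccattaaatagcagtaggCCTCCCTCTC
Rpl11, chr4:136053357-136053386, minus strand: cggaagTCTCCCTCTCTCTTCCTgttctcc
Rps6, chr4:86857349-86857378, minus strand: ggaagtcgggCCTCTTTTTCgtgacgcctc
Rps19, chr7:24884612-24884641, plus strand: cgcccgggaaaccccgtcgTTCCCTTTCCC
Rpl22l1, chr3:28805499-28805528, plus strand: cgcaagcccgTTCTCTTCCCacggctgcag
Within the window the run was 21 bases long in Rpl7a, 18 in Rpl35, 17 in Rpl11 and 10 in Rps6, Rpl41 and Rpl22l1, and the annotated start need not be the first transcribed base. Within the 300 bases, on both strands, CTTTCC, which can fall inside the pyrimidine run, was found in 54.7% of matched members and 29.3% of genes. CCGGAAG, the core letters bound by ETS factors, was found in 40.6% and 9.93%, and TCTCGCGA in 17.2% and 1.13%. TATAAA, the letters of the TATA box, was found in 10.9% of members and 15.7% of genes, and CACGTG, the E-box bound by Myc, in 9.38% and 8.09%.

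The libraries held 17698900 to 26471758 counts, of which 0.882% to 1.65% were spike-ins, and 16470 genes passed the filter on low counts, all 87 members among them. As a check of the labels, 101 of 112 tested genes of the duplicated region were higher in Dp1Tyb under relative scaling, with a median fold change of 1.45. Fibroblast markers such as Col1a1, Fn1 and Vim were all detected (14 of 14), with a summed level of 25350 to 35789 counts per 1e+06 counts (CPM) in WT and 29091 to 35512 in Dp1Tyb.

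Members together supplied 2.17% to 3.17% of all endogenous counts. Their levels per transcript length (RPKM, counts per kilobase and per 1e+06 counts, on relative scaling) had a median of 345 with quartiles of 185 and 494, and their rank order was similar in all libraries (rank correlation of RPKM between pairs of libraries 0.947 to 0.996, over 87 genes counted in shared libraries). The highest level was that of Rpl41, which encodes the smallest of the ribosomal proteins. Values per library are listed here and further on in the order of replicates 1 to 4. The RPKM of Rpl41 was 1381, 1261, 1654 and 1776 in WT, and 1951, 1847, 1589 and 1693 in Dp1Tyb. The groups overlapped, and in every library Rpl41 lay above each other member. Next in mean RPKM were Rplp1 (899.9), Rps12 (827), Rplp0 (808) and Rpl32 (807), and the ranges of these 4 genes over the libraries overlapped, so that their order was not resolved beyond their spread.

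**Figure D1:**
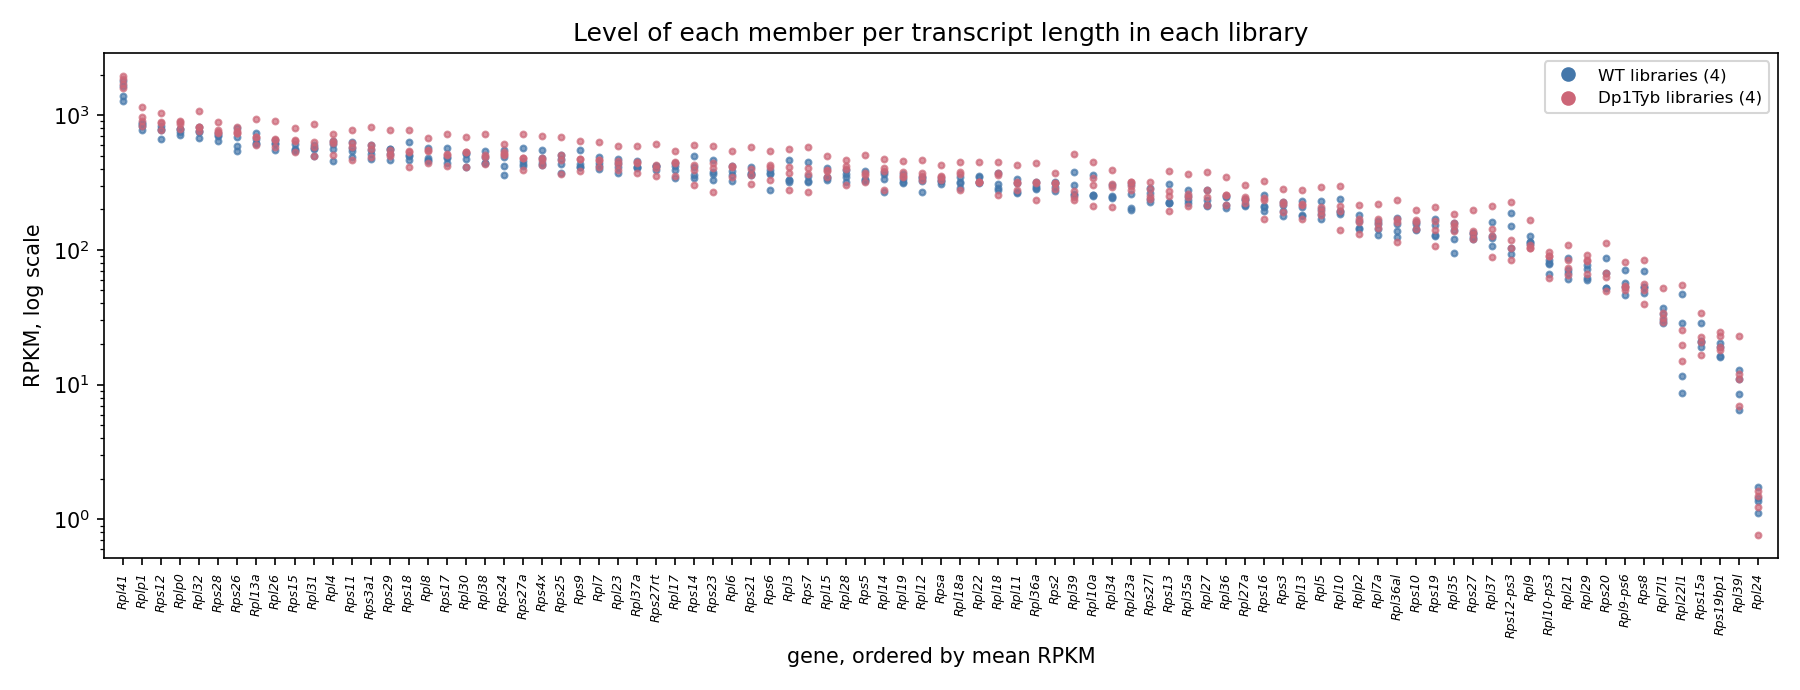
RPKM (log scale) of each member in the 8 libraries, with genes ordered by mean RPKM from left to right, WT libraries in blue and Dp1Tyb libraries in red. The quartiles of the members are 185 and 494, Rpl41 stands highest at 1644 on average, and Rpl24 lowest at 1.34.

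The lowest levels were those of Rpl24 (mean RPKM 1.34), Rpl39l (11.5), Rps19bp1 (19.6), Rps15a (23.0) and Rpl22l1 (26.5). Rps19bp1, Rpl39l and Rpl22l1 are not core proteins, whereas Rps15a is a core 40S protein whose annotated main transcript was 5130 bases long, against 474 bases for Rpl22. Before division by length, Rps15a had 98.0 to 148 CPM in WT and 85.5 to 176 in Dp1Tyb under relative scaling. A level per length depends on the transcript chosen: with the length of all exons of a gene in its place, an alternative chosen after seeing the data, the rank correlation of the levels across members was 0.827, and Rpl41 and Rplp1 changed places at the top. Rps15a, with 6270 exon bases in all, then still ranked 83 of 87. Rpl24, a core 60S protein, had 26, 23, 16 and 19 counts in the WT libraries and 26, 19, 17 and 9 in the Dp1Tyb libraries. In the annotation 71.5% of the exon bases of Rpl24 are shared, on the same strand, with the readthrough locus Gm28037. Overlap at the same locus is not the same as several alignments in the genome. How it affected the counts was not tested, and the level of Rpl24 rests on few reads. No fold change of Rpl24 between the genotypes could be resolved on so few counts (log2 fold change -0.14 ± 0.29, SE).

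No member was called as changed between Dp1Tyb and WT MEFs. Fold changes were tested in edgeR (quasi-likelihood, two-sided, Benjamini-Hochberg adjustment over all 16470 genes) under spike-in scaling, which keeps differences in RNA content per spike-in, and under relative scaling by trimmed mean of M values (TMM), which compares each gene with the rest of the library. With n = 4 per genotype, 0 of 87 members had an adjusted p below 0.05 under either scaling, where the share called among all tested genes was 0.0121% (2 genes) with spike-in and 0.0243% (4 genes) with relative scaling. The smallest adjusted p of a member in edgeR was 0.9998 with spike-in and 0.9988 with relative scaling. At an unadjusted p below 0.05 spike-in scaling gave 0 members, beside 1.17% of all tested genes, and relative scaling gave 1, Rpl23a, beside 4.25%. DESeq2 with the same scalings likewise called 0 members, where it called 0.0122% of the genes with an adjusted p with spike-in and 0.384% with relative scaling. At an unadjusted p below 0.05 DESeq2 gave 0 members with spike-in scaling, beside 0.881% of all genes it tested, and 2 with relative scaling, Rpl23a and Rplp0, beside 4.35%.

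The estimates were small and mostly of the same sign. Under relative scaling, 85 of 87 members had a log2 fold change above 0, against 50.9% of all tested genes, and the median of their log2 fold changes was 0.17 (1.13-fold) where all tested genes had 0.0045. With spike-in scaling, 85 of 87 were likewise above 0, against 70.4% of all tested genes, and the medians were 0.23 (1.18-fold) for the members and 0.11 for all tested genes. The 2 exceptions were Rpl24 and Rps12-ps3 under both scalings. Members do not vary independently of each other: across the 8 libraries the correlation between pairs of members had a median of 0.814 and was above 0 for 95.1% of pairs, so 85 estimates of 1 sign are not 85 separate observations. Rplp0 was the single member whose 4 Dp1Tyb values all lay above its 4 WT values under relative scaling (1.65% of all tested genes did so), no member did so under spike-in scaling (0.285%), and no member lay wholly below (1.52% and 0.14%).

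**Figure D2:**
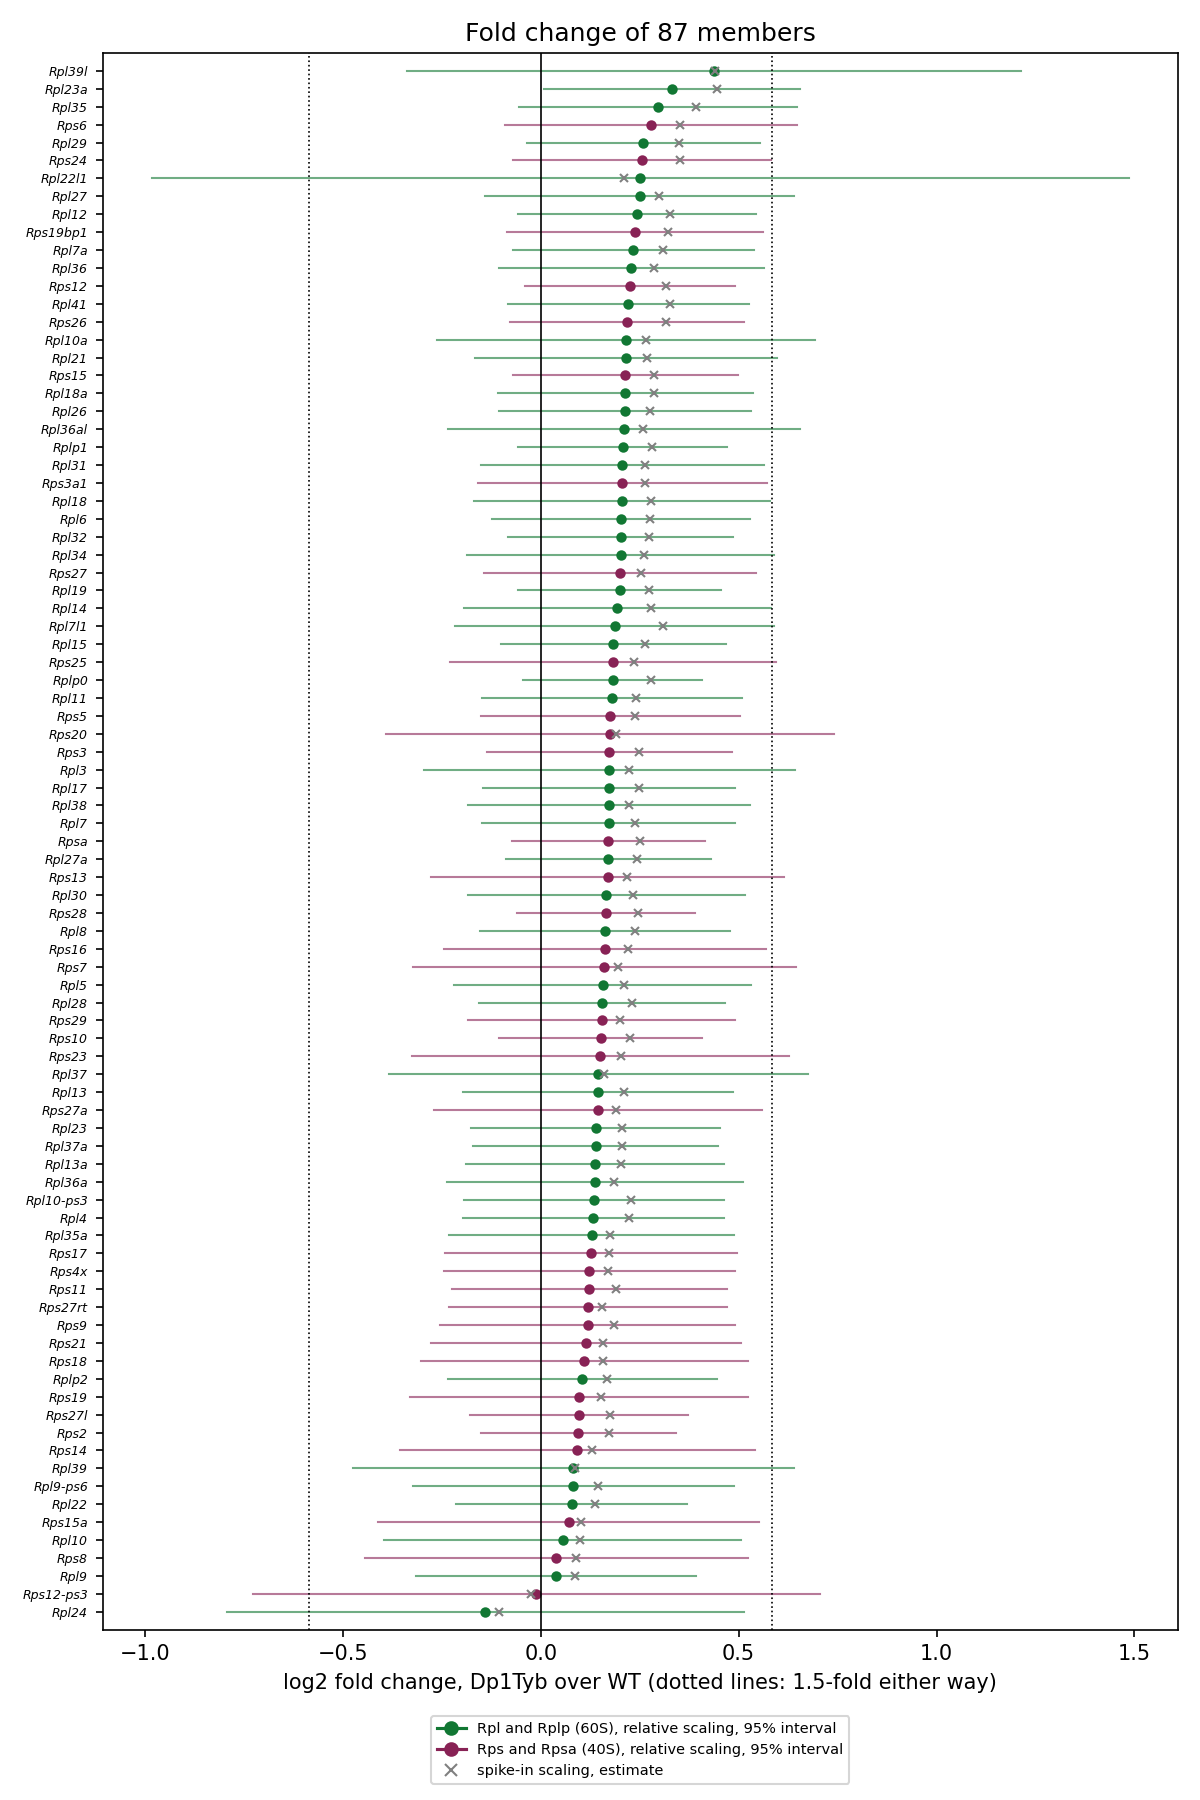
log2 fold change of Dp1Tyb over WT for each of the 87 members, with points and 95% intervals under relative scaling (60S green, 40S and Rps19bp1 purple), crosses for the estimate under spike-in scaling, and dotted lines at 1.5-fold either way. Only the interval of Rpl23a leaves out 0, and 66 of the 87 intervals lie between the dotted lines.

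How far a change could go undetected depended on the scaling. Under relative scaling the standard error of a member's log2 fold change had a median of 0.16, and the 95% interval lay within 1.5-fold either way for 66 of 87 members, which was 75.9%, against 49.7% of all tested genes. Under spike-in scaling the median standard error was 0.32 and no member had so narrow an interval (0% of all tested genes). The spread within a genotype was likewise smaller under relative scaling: the median SD of log2 CPM over the members was 0.24, against 0.28 over all tested genes, and under spike-in scaling 0.32 against 0.48. Under relative scaling, Rplp0 (SD 0.076), Rps28 (0.11) and Rpsa (0.12) varied least, and Rpl22l1 (0.99), Rpl39l (0.59) and Rps12-ps3 (0.55) most. With spike-in scaling the SD of Rplp0 was 0.40, above the median of the members.

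The members moved together from library to library, and Dp1Tyb replicate 2 stood apart. Their share of the endogenous counts was 2.32%, 2.52%, 2.30% and 2.39% in WT and 2.17%, 3.17%, 2.48% and 2.4998% in Dp1Tyb, with means of 2.39% ± 0.0997 (SD, n = 4) and 2.58% ± 0.42. Replicates 1 and 2 of Dp1Tyb held the lowest and the highest share of all 8 libraries, so the groups overlapped, and the difference of 0.195 percentage points between the means was smaller than the SD among the Dp1Tyb libraries. The 95% binomial interval (Wilson, counting error only) of the highest share was 3.16% to 3.18%, narrower than the spread between cultures. Under relative scaling, 83 of 87 members had their highest value in Dp1Tyb replicate 2, where all 87 were above their own mean, and 41 had their lowest value in Dp1Tyb replicate 1 and 29 in WT replicate 1.

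The median deviation of the members from their own mean log2 CPM under relative scaling was -0.18, 0.088, -0.14 and -0.040 in WT. In Dp1Tyb it was -0.22, 0.46, 0.030 and 0.025. Without Dp1Tyb replicate 2 the median log2 fold change under relative scaling went from 0.17 to 0.023, the number of members above 0 from 85 to 51, and the difference in share from 0.195 to -0.0026 percentage points. Leaving out each other library in turn gave medians of 0.13 to 0.26 and 82 to 87 members above 0. The difference in share was then 0.17 to 0.33 percentage points, highest without Dp1Tyb replicate 1. In Dp1Tyb replicate 2, the 801 other tested protein-coding genes with a main transcript under 1000 bases were also higher, with a median deviation of 0.24, against -0.074 to 0.025 in the remaining 7 libraries. Its endogenous counts per spike-in were the lowest of all libraries (0.690 relative to the geometric mean of the 8 libraries, which spanned 0.690 to 1.31). The part of short transcripts and of RNA content in the result was not tested.

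**Figure D3:**
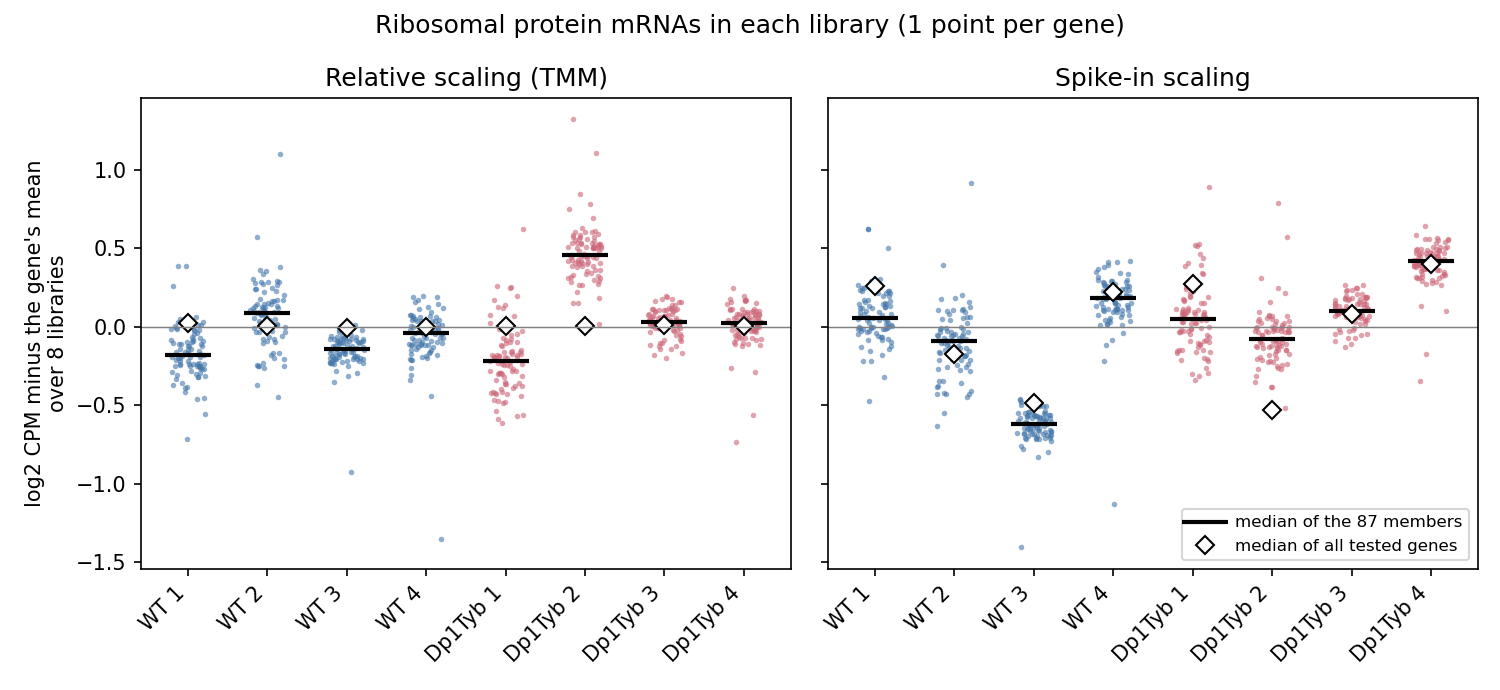
Deviation of each member from its own mean log2 CPM over the 8 libraries (1 point per gene) under relative scaling (left) and spike-in scaling (right), with black bars for the median of the members and diamonds for the median of all tested genes. Under relative scaling the members of Dp1Tyb replicate 2 lie 0.46 above their means, and under spike-in scaling those of WT replicate 3 lie 0.62 below and those of Dp1Tyb replicate 4 lie 0.42 above.

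Under spike-in scaling other libraries carried the difference. The members' median deviation was 0.057, -0.092, -0.62 and 0.18 in WT, and 0.050, -0.075, 0.10 and 0.42 in Dp1Tyb. The medians of all tested genes were 0.26, -0.17, -0.49 and 0.22 in WT and 0.27, -0.53, 0.085 and 0.40 in Dp1Tyb. In Dp1Tyb replicate 2 the members (-0.075) lay above all tested genes (-0.53), and in WT replicates 1, 3 and 4 and Dp1Tyb replicate 1 they lay below them. The lowest value was in WT replicate 3 for 84 members and the highest in Dp1Tyb replicate 4 for 78. Without WT replicate 3 the median log2 fold change of the members was 0.095 with 73 above 0, and without Dp1Tyb replicate 4 it was 0.13 with 83 above 0. Counts of members per spike-in were 0.933 ± 0.21 in WT and 1.10 ± 0.17 in Dp1Tyb (SD, n = 4, relative to the geometric mean of the 8 libraries), a difference within the spread of the cultures, and the counts of all other genes per spike-in were 0.966 ± 0.22 and 1.08 ± 0.27. Lower counts per spike-in cannot be told apart from fewer cells in the tube.

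**Figure D4:**
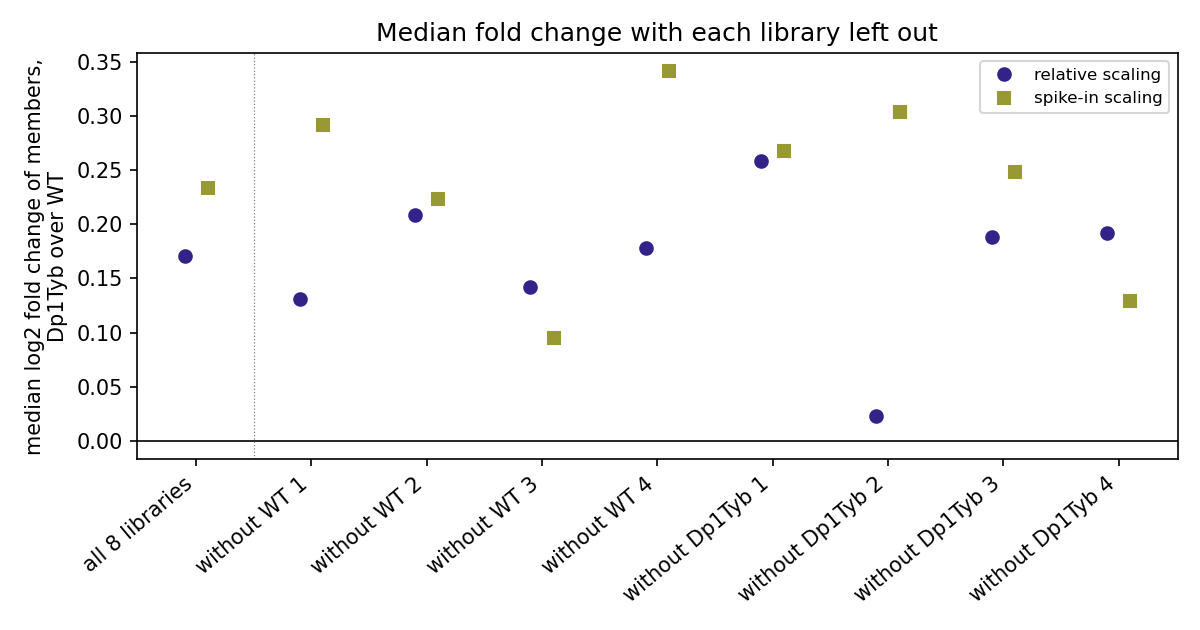
Median log2 fold change (Dp1Tyb over WT) of the members with all 8 libraries and with each library left out in turn, circles for relative and squares for spike-in scaling. The relative median falls from 0.17 to 0.023 without Dp1Tyb replicate 2, and the spike-in median from 0.23 to 0.095 without WT replicate 3.

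The balance of the subunits varied little between libraries. The mean log2 CPM of the 60S members minus that of the 40S members was -0.33, -0.31, -0.29 and -0.26 in WT and -0.23, -0.30, -0.27 and -0.26 in Dp1Tyb. The means were -0.30 ± 0.032 and -0.27 ± 0.031 (SD, n = 4), the groups overlapped, and Dp1Tyb replicate 2, which stood apart in the level of the members, lay inside the range of the other libraries. The 40S members here included Rps19bp1. The difference between the means was 0.031, and 0.019 with core members only. With each library left out in turn it ranged from 0.019 (without Dp1Tyb replicate 1) to 0.045 (without WT replicate 4). The share of counts was 1.43% ± 0.053 for 60S members in WT and 1.55% ± 0.23 in Dp1Tyb, and 0.955% ± 0.049 and 1.03% ± 0.19 for 40S members. On the relative scale the 60S members had a median log2 fold change of 0.18 and the 40S members one of 0.15.

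The stalk proteins of the large subunit, Rplp0, Rplp1 and Rplp2, recruit the translation factors that hydrolyse GTP, and Rplp0 holds the other two in place. Rplp0, commonly used as a reference gene, had 1078, 964, 1009 and 1063 CPM under relative scaling in WT and 1205, 1218, 1079 and 1167 in Dp1Tyb. The groups did not overlap, but the lowest Dp1Tyb value (1079) and the highest WT value (1078) were almost equal. The fold change was 1.13 (95% interval 0.970 to 1.33; unadjusted p = 0.102 in edgeR, not called after adjustment). Under spike-in scaling the values were 1272, 852, 723 and 1240 in WT and 1453, 840, 1135 and 1531 in Dp1Tyb, and the groups overlapped. Rplp1 stood at 439, 429, 389 and 411 CPM in WT and 486, 573, 416 and 449.7 in Dp1Tyb under relative scaling (fold change 1.15, 0.962 to 1.39). Rplp2 stood at 157, 175, 137 and 140 CPM in WT and 127, 209, 156 and 163 in Dp1Tyb (fold change 1.08, 0.850 to 1.36), so that its lowest and its highest value were both in Dp1Tyb libraries.

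The 10 members with the smallest unadjusted p under relative scaling were Rpl23a, Rpl29, Rps12, Rpl35, Rpl12, Rplp0, Rps24, Rplp1, Rpl19 and Rpl7a, with estimates of 0.18 to 0.33 on the log2 scale. Rpl23a, a protein near the exit of the nascent chain tunnel where signal recognition particle docks, had 115, 110, 145 and 172 CPM in WT and 179, 167, 156 and 179 in Dp1Tyb. WT replicates 1 and 2 were the low libraries, and WT replicate 4 lay among the Dp1Tyb values. Its fold change was 1.26 (95% interval 1.01 to 1.58; unadjusted p = 0.0452, not called after adjustment in edgeR), and under spike-in scaling 1.36 (0.886 to 2.09). Of its 100-base windows 80.0% were shared with other annotated transcripts.

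Rpl35, also at the tunnel exit and with the long pyrimidine run given earlier, had 90.3, 113, 133 and 149 CPM in WT and 130, 173, 142 and 149.98 in Dp1Tyb (fold change 1.23, 0.963 to 1.57). Rpl29 had 42.1, 44.0, 51.4 and 55.2 CPM in WT and 47.0, 65.0, 59.8 and 58.9 in Dp1Tyb (1.20, 0.976 to 1.47). In both genes WT replicate 1 was lowest, Dp1Tyb replicate 2 was highest, and the genotypes overlapped. Rps12, among the 5 members with the highest level, had 328, 381, 389 and 409 CPM in WT and 383, 511, 428 and 438 in Dp1Tyb (1.17, 0.972 to 1.41), and Rps24 had 579, 671, 784 and 891 in WT and 832, 987, 817 and 858 in Dp1Tyb (1.19, 0.953 to 1.498). Rpl12, at the base of the stalk, had 336, 420.5, 405 and 433 CPM in WT and 407, 576, 441 and 463 in Dp1Tyb (1.18, 0.961 to 1.46). Rpl19 and Rpl7a gave fold changes of 1.15 (0.961 to 1.37) and 1.18 (0.952 to 1.45), each with its highest value in Dp1Tyb replicate 2 (344 and 199 CPM).

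Rpl5, Rpl11 and Rpl23 bind Mdm2 when they are free of the ribosome. Rpl5 had 349, 474, 375 and 411 CPM in WT and 371, 603, 422 and 396 in Dp1Tyb under relative scaling (fold change 1.11, 0.859 to 1.45). Rpl11 had 221, 277, 224 and 263 CPM in WT and 232, 357, 264 and 262 in Dp1Tyb (1.13, 0.902 to 1.42). Rpl23 had 392, 468, 436 and 498 CPM in WT and 414, 619, 482 and 461 in Dp1Tyb (1.10, 0.886 to 1.37). For all 3 genes the genotypes overlapped and the highest value was in Dp1Tyb replicate 2. Of 18 genes of the p53 response to free ribosomal proteins (Mdm2, Cdkn1a and others), 0 were called under either scaling, 8 were above 0 under relative scaling with a median log2 fold change of -0.03, and none had an unadjusted p below 0.05 (0 of 18). With spike-in scaling 13 of the 18 were above 0, with a median of 0.12, where 70.4% of all tested genes were above 0.

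Rps6, the 40S protein that S6 kinases phosphorylate downstream of mTORC1, had 245, 329, 319 and 345 CPM in WT and 287, 476, 377 and 361 in Dp1Tyb (fold change 1.21, 0.939 to 1.57). Rps19, the gene first linked to Diamond-Blackfan anaemia, had 119, 131, 97.8 and 99.6 CPM in WT and 82.3, 161, 109 and 127 in Dp1Tyb (1.07, 0.796 to 1.44). Rps19bp1, its binding partner, had 13.6, 13.5, 16.0 and 17.1 CPM in WT and 19.3, 20.6, 16.1 and 15.2 in Dp1Tyb (1.18, 0.943 to 1.47). In none of the 3 did the genotypes separate. Rpl38, whose loss of function alters the axial skeleton of the mouse, had 160, 198, 161 and 177 CPM in WT and 158, 264, 185 and 177 in Dp1Tyb (1.13, 0.881 to 1.44). Rpsa, a 40S protein also described as a laminin receptor, had 494, 522, 518 and 545 CPM in WT and 531, 687, 566 and 556 in Dp1Tyb (1.13, 0.9503 to 1.33), and was among the 3 least variable members on that scale.

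The 4 members on chromosome X had a median log2 fold change of 0.10 under relative scaling. Rps4x had 468, 535, 413 and 429 CPM in WT and 415, 677, 466 and 451 in Dp1Tyb (fold change 1.09, 0.844 to 1.41), and Rpl36a gave 1.10 (0.848 to 1.43). Rpl10, which completes the large subunit late in its assembly, had 149, 191, 154 and 154 CPM in WT and 112, 238, 169 and 155 in Dp1Tyb (1.04, 0.760 to 1.42). Rpl39, a small protein that lines the exit tunnel, had 184, 233, 158 and 157 CPM in WT and 143, 313, 168 and 152 in Dp1Tyb (1.06, 0.720 to 1.56). In both genes the Dp1Tyb libraries enclosed the whole range of the WT libraries.

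Rps27a is made as a fusion with ubiquitin, and Fau makes a 40S protein fused to a ubiquitin-like protein. Rps27a had 277, 360, 266 and 292 CPM in WT and 248, 460, 307 and 307 in Dp1Tyb (fold change 1.11, 0.83 to 1.47). The genotypes overlapped, as they did for Fau and Rack1, which the naming rule leaves out. Fau had 163, 206, 193 and 204 CPM in WT and 183, 297, 225 and 231 in Dp1Tyb (log2 fold change 0.28 ± 0.15, SE), and Rack1, a scaffold on the head of the small subunit, 418, 487, 370 and 374 in WT and 366, 611, 454 and 454 in Dp1Tyb (0.19 ± 0.16).

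Among the paralogues, Rpl22l1 varied more than any other member (SD 0.99 of log2 CPM within genotypes). It can take the place of Rpl22 in the large subunit, and Rpl22 is known to hold its mRNA down. Rpl22l1 had 355, 617, 136 and 98 counts in WT and 362, 531, 221 and 143 in Dp1Tyb. In both genotypes the libraries numbered 1 and 2 were high and those numbered 3 and 4 low, and the genotypes overlapped (log2 fold change 0.25 ± 0.55, SE, under relative scaling). Rpl22 itself had 149, 166, 150.2 and 166 CPM in WT and 151, 214, 151 and 151 in Dp1Tyb, so that the ratio of RPKM of Rpl22l1 to Rpl22 ranged from 0.0247 in WT replicate 4 to 0.135 in WT replicate 2, a 5.46-fold range. The labels do not say what libraries of the same number share.

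**Figure D5:**
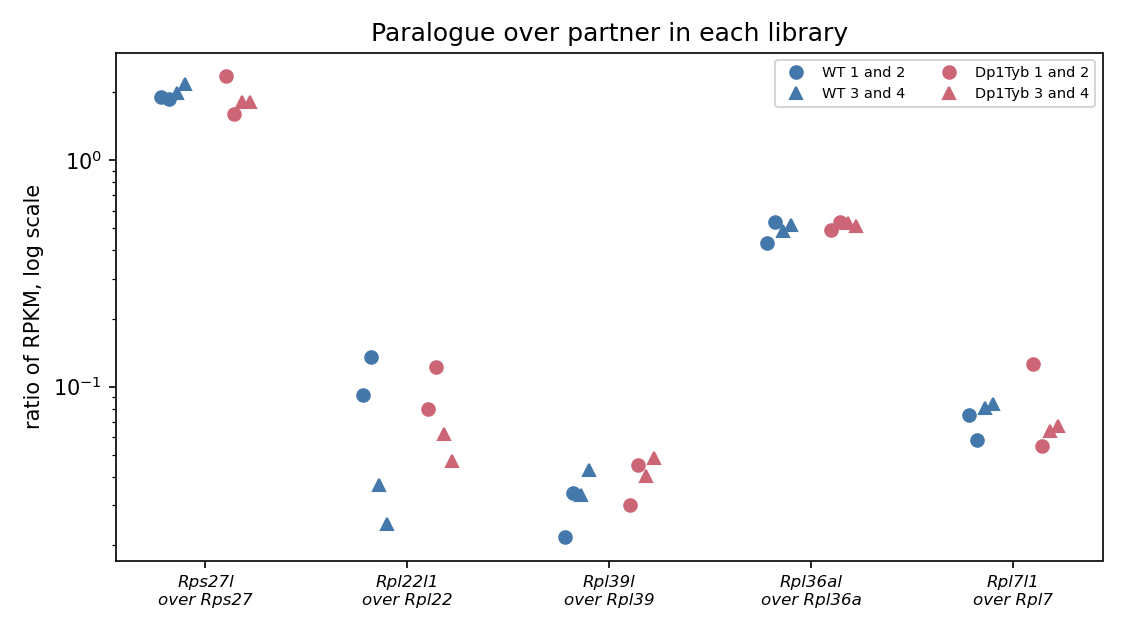
Ratio of RPKM (log scale) of each paralogue to its partner in the 8 libraries, WT blue and Dp1Tyb red, circles for the libraries numbered 1 and 2 and triangles for those numbered 3 and 4. The ratio of Rpl22l1 to Rpl22 spans 0.0247 to 0.135 with the circles above the triangles in both genotypes, whereas that of Rpl36al to Rpl36a stays between 0.432 and 0.536.

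The remaining pairs varied less. Rpl39l, a paralogue of Rpl39 known from the testis, reached 0.0216 to 0.0481 of the RPKM of Rpl39, and its own values were 5.21, 10.3, 6.88 and 8.85 CPM in WT and 5.60, 18.5, 8.86 and 9.62 in Dp1Tyb, highest in Dp1Tyb replicate 2. Rpl36al stood at 0.494 ± 0.045 of Rpl36a in WT and 0.518 ± 0.020 in Dp1Tyb (SD, n = 4). Rpl7l1 stood at 0.0744 ± 0.011 of Rpl7 in WT and 0.0779 ± 0.033 in Dp1Tyb, with the highest ratio, 0.126, in Dp1Tyb replicate 1, where Rpl7l1 reached 135 CPM against 74.1 to 95.7 in the other 7 libraries. Rps27l, a target of p53 that sits in the same place as Rps27, stood at 1.99 ± 0.14 of Rps27 in WT and 1.90 ± 0.32 in Dp1Tyb. Within each of these pairs the genotypes overlapped. The level of Rps27 was counted on little unique sequence, since 98.4% of its 100-base windows also occur in transcripts of other genes, among them Rps27rt, so the ratio to Rps27 is uncertain.

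Many members share sequence with close copies, and reads with several alignments had been discarded. How far this lowered their counts was not tested. Over the 87 members a median of 43.0% of the 100-base windows of the main transcript also occurred in transcripts of other annotated genes, 39 members shared over 50% and 8 shared none, Rpl22, Rpl32 and Rps27l among the latter. Windows were matched on both strands, and overlap with another gene at the same locus also counted as sharing. Examples are Wdr38 for Rpl35 and Gm28037 for Rpl24 (83.0% and 80.1% of windows shared in all). The percentages are therefore not a measure of reads with several alignments. Rps12-ps3 shared 100% of its windows, Rps12 being among the genes that share them, and had 1655, 2181, 1083 and 940 counts in WT and 1070, 1939, 1186 and 880 in Dp1Tyb. Rows of 76 pseudogenes named after members held 1.89% to 2.09% as many counts as the members themselves. With relative scaling the median log2 fold change was 0.17 for members with over 50% of windows shared and 0.17 for the other 48, the same to 2 decimals. Across the 87 members the rank correlation of RPKM with the percentage of shared windows was -0.18.

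Other genes of ribosome production were described from lists that cover rRNA transcription, snoRNP and nucleolar proteins, assembly factors, translation factors and regulators. No gene of these lists was called under either scaling in edgeR. Under relative scaling, 17 of 20 rRNA transcription genes were above 0 with a median log2 fold change of 0.10, and 1 (Polr2e) had an unadjusted p below 0.05, a share close to the 4.25% of all tested genes. With the same scaling, of the snoRNP and nucleolar core 9 of 13 were above 0 (median 0.11) and 1 (Nop10) had an unadjusted p below 0.05, and of 66 assembly factors, Rps19bp1 among them, 59 were above 0 (median 0.09) and 1 (Urb1) had an unadjusted p below 0.05. Of 31 genes listed under translation factors, 28 were above 0 with a median of 0.11, and 0 had an unadjusted p below 0.05. Their mRNAs in part carry TOP tracts, and this list also holds genes of other roles, such as Vim, Hnrnpa1 and Nap1l1. With spike-in scaling 19 of 20, 13 of 13, 66 of 66 and 31 of 31 genes of these 4 lists were above 0, with medians of 0.21, 0.21, 0.20 and 0.21. Among all tested genes 70.4% were above 0 with spike-in scaling (median 0.11) and 50.9% with relative scaling (median 0.0045). The regulators of mTORC1 and Myc had a median of -0.02 with 10 of 22 above 0 under relative scaling and a median of 0.10 with 18 of 22 above 0 under spike-in scaling. Of these regulators, 3 had an unadjusted p below 0.05 with relative scaling (4.25% of all tested genes) and 1, Mxd4, with spike-in scaling (1.17%). They were Mxd4, a Myc antagonist (-0.72 ± 0.18), Deptor, an mTOR inhibitor (-0.37 ± 0.12), and Eif4ebp1, a translation repressor that mTORC1 inactivates (0.35 ± 0.15). In Dp1Tyb replicate 2, where the members deviated by 0.46, the median deviation was 0.15 for assembly factors and 0.24 for the translation factor list. In that library it was 0.14 for rRNA transcription, 0.22 for the snoRNP and nucleolar core and -0.21 for the regulators, their lowest. For the assembly and translation factor lists the lowest median was in WT replicate 1 (-0.35 and -0.36). The same held for rRNA transcription (-0.21) and the snoRNP and nucleolar core (-0.53).

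In contrast to the members, the next 3 genes, which are linked to ribosomes, lie in the duplicated region. They were chosen by name and not by a search of the region. Mrps6, a protein of the small mitochondrial subunit, had 38.0, 29.7, 38.3 and 37.7 CPM in WT and 99.6, 57.2, 51.3 and 53.1 in Dp1Tyb. Mrpl39, of the large mitochondrial subunit, had 35.3, 36.3, 47.8 and 53.8 CPM in WT and 82.9, 63.4, 64.4 and 72.4 in Dp1Tyb. Urb1, an assembly factor of the cytoplasmic 60S subunit, had 28.7, 22.5, 25.9 and 26.2 CPM in WT and 56.8, 41.5, 42.8 and 41.5 in Dp1Tyb. For all 3 every Dp1Tyb library lay above every WT library under relative scaling, as in 1.65% of all tested genes. The 3 log2 fold changes were 0.86 ± 0.21, 0.71 ± 0.16 and 0.82 ± 0.14 (SE), yet none of the 3 was called over all genes (adjusted p = 0.57, 0.47 and 0.17 in edgeR). The 76 tested mitochondrial ribosomal proteins, Mrps6 and Mrpl39 among them, had a median log2 fold change of 0.18 with 72 above 0 by relative scaling, and of 0.27 with 76 above 0 by spike-in scaling. Of all tested genes, 50.9% and 70.4% were above 0 by these scalings.

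Markers of other cells were present at low levels, and none of them was called under either scaling. All 8 tested leukocyte markers (Ptprc, Csf1r and others) were below 0 under relative scaling, with a median log2 fold change of -0.60, 6 at an unadjusted p below 0.05 (4.25% of all tested genes) and 0 called. With spike-in scaling all 8 were again below 0 (median -0.47), with 1 at an unadjusted p below 0.05 (1.17% of all tested genes) and 0 called. Their summed level was 289 to 408 CPM in WT and 169 to 328 in Dp1Tyb. All 7 tested skeletal muscle markers, of 10 listed, were above 0 under both scalings, with medians of 0.72 (relative) and 0.78 (spike-in). Among all tested genes 50.9% and 70.4% were above 0. In edgeR 1 marker (relative) and 3 markers (spike-in) had an unadjusted p below 0.05, beside 4.25% and 1.17% of all tested genes. The muscle markers summed to 47.0 to 75.6 CPM in WT and 47.0 to 143 in Dp1Tyb, and their median deviation was -0.66, -0.34, -0.16 and -0.013 in WT and -1.14, 0.83, 0.17 and 0.98 in Dp1Tyb. Dp1Tyb replicate 1 was thus the lowest of all libraries. On relative scaling the other lists summed to 84.1 to 131 CPM for neural markers (2 of 7 above 0, median -0.41, 2 at an unadjusted p below 0.05, beside 4.25% of all tested genes), 31.9 to 79.0 for endothelial markers (1 of 5, median -0.17) and 18.9 to 49.6 for epithelial markers (2 of 4, median 0.084), the latter 2 lists with 0 at an unadjusted p below 0.05, and of the erythroid list 1 of 8 genes, Alas2, had counts (2.13 to 7.19 CPM). Their part in the level of the members was not tested, and in bulk RNA fewer cells of a type cannot be told apart from less RNA per cell.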

How the data were processed

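Poly(A) RNA of 8 MEF cultures (4 WT, 4 Dp1Tyb) with ERCC spike-ins was sequenced from stranded libraries. The authors trimmed reads with Trim Galore, aligned them with TopHat2 2.0.12 to GRCm38 plus spike-ins, discarded reads with several alignments and counted with HTSeq; the strand option and annotation release are not given in the sources used here. The deposited raw counts per gene were used, not the authors' normalised values or their DESeq2 1.6.3 table of fold changes and p-values.

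Symbols and transcripts came from GENCODE M21 (GRCm38), which held 19318 of the gene IDs and lacked 175. Main transcripts were protein-coding, best by APPRIS and support level, then shortest. Spike-in scaling used median-of-ratios factors over 63 spike-ins, relative scaling TMM over endogenous genes. Genes passing filterByExpr were fitted in edgeR 4.0.16 (R 4.3.3; glmQLFit, two-sided, called at adjusted p under 0.05), with DESeq2 1.42.0 as an alternative. CPM on the log scale carried a pseudocount of 0.5 counts. The scripts were tested on simulated data. Binomial intervals are 95%. Other alternatives were further scaling factors, filters, thresholds, core members only, pseudogene counts added, a replicate block and each library left out. Members, lists and tests were chosen with earlier results of these data known. Named members were the 10 with the smallest p, the 5 highest and 5 lowest by RPKM, the 3 most variable and those with a stated role; an item of the role list is not reported here. Depth was 17698900 to 26471758 counts per library.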

Additional observations from a re-analysis of the deposited data

Results flagged for a closer look

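Among 114 groups of 4 values examined for the named members and the summaries per library, 3 had a library far from the other 3 of its genotype, by the gap to the nearest value over the range of the group; chance alone flags about 1 in 20 groups. Rpl10 had a log2 CPM of 7.58 in WT replicate 2 under relative scaling, where the other WT libraries had 7.22, 7.26 and 7.27. Rpl3, a core protein of the peptidyl transferase centre, had 9.29 in WT replicate 2, where the others had 8.75, 8.81 and 8.81. Rpl22 had 7.74 in Dp1Tyb replicate 2, where the others all had 7.24.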

How the results depend on the processing

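Under each alternative run (other spike-in or relative scaling factors, DESeq2, other filters, an adjusted p under 0.01, each library left out), 0 members were called under either scaling. The median log2 fold change ranged from 0.023 to 0.26 under relative scaling and from 0.095 to 0.34 under spike-in scaling with each library left out, the difference in share from -0.0026 to 0.33 percentage points, the 60S minus 40S difference between genotypes from 0.019 to 0.045 and the median SD from 0.18 to 0.26. Members above 0 numbered 51 to 87 under relative scaling and 73 to 87 under spike-in scaling, a count whose alternatives were chosen after seeing the data, and the low count of 51 came without Dp1Tyb replicate 2. With the replicate number as a block, 0 members were called, the smallest adjusted p was 0.436 under relative scaling, and the medians were 0.25 under spike-in and 0.15 under relative scaling. Same-numbered libraries of the 2 genotypes deviated together with correlations of 0.37, 0.52, 0.030 and 0.33, and 6 of 8 libraries correlated best with their own number, a hint from the data and not from the design; the numbers were not taken as pairs. Core members gave medians of 0.24 and 0.17. Rpl24, with 9 to 26 counts per library, was the member with the fewest counts.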
